A study of Mus musculus with 2 samples.

Results

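Antisense transcripts are noncoding RNAs read from the DNA strand opposite to that of a known gene. The 3359 transcripts described here carry the transcript type antisense in GENCODE M21, have an exon value in the deposited table of 121429 transcripts, and have no symbol that starts with Snhg. They belong to 2384 genes, of which 1811 have 1 such transcript, and 3138 of the transcripts also have an intron value. GENCODE M21 holds 4511 antisense transcripts in all, of which 18 are Snhg transcripts. The cells were wild-type embryonic stem cells of the mouse line DTCM23/49 XY, freed of feeder cells and grown with serum and leukemia inhibitory factor. They were given 200 µM 4-thiouridine (4sU) for 10 min, which enters RNA in place of uridine while the RNA is made. RNA that carried 4sU was pulled out with biotin and streptavidin, and the labeled (newly made) RNA and the unlabeled (older) RNA both of replicate 1 and the same genotype, were sequenced in 1 library apiece. The labels describe the second library as preexisting RNA in one field and as total RNA in others. It is taken here as unlabeled RNA, and if it held total RNA, each ratio below would compare labeled RNA with all RNA. With 2 libraries and no replicates, every value below describes these libraries, no difference has a replicate check, and no test was made.

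Antisense transcripts can start beside the promoter of the gene they oppose and run away from it, start inside it and run against it, or enter it from its end. Some act through the act of transcription or by binding chromatin proteins in cis, as do Airn, Kcnq1ot1 and Nespas in imprinted domains and Tsix, the antisense partner of Xist in X inactivation. Many others have no known role and are held to be made at low rates and broken down soon after. In the labeling scheme used here, RNA made within the last 10 min is in the labeled library, so the labeled value set against the unlabeled value is higher for RNA that turns over faster. The values are relative within a library, and a labeled to unlabeled ratio is read against that of other transcripts.

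The sequence at a start site differed widely among the members. RefSeq start windows on GRCm38.p6, which reach from 250 bases before a start to 50 bases after it, were found under the same symbol for 949 of the 2384 genes, and for 610 of them the RefSeq start lay within 50 bases of a GENCODE start. The 3 windows below are shown because their genes are among the highest in exon value of those whose window touches no annotated untranslated region, and because they differ in position. They were chosen after their values were seen. As genes, Tug1 (chr11:3648765-3649064, minus strand) is head-to-head with Morc2a and 1600020E01Rik (chr6:86527151-86527450, plus strand) is head-to-head with Pcbp1. Rab26os (chr17:24528001-24528300, plus strand) lies inside an intron of Rab26. These positions, and the position classes of windows given below, are those of the whole gene and not of the single start. The Tug1 start shown lies outside the span of Morc2a and runs away from it. Capitals mark each CG and, in Rab26os, the TATAAA box.
Tug1: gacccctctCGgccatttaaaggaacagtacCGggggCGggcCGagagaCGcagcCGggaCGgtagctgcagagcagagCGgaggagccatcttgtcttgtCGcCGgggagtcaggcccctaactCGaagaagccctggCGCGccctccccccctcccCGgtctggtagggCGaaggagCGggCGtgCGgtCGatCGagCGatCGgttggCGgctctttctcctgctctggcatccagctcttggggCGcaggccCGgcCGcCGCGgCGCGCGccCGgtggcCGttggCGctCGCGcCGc
1600020E01Rik: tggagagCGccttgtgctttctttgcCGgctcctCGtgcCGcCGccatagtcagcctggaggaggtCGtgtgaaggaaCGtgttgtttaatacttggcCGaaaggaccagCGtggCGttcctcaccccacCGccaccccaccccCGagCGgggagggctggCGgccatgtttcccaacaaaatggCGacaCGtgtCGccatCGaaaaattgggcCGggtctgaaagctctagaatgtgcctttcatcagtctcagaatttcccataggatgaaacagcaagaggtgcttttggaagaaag
Rab26os: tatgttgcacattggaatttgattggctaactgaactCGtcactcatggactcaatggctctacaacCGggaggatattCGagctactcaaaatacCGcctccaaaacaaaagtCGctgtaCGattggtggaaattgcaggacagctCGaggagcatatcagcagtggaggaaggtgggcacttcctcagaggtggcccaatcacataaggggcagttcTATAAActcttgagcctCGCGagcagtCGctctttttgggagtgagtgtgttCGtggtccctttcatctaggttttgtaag
The Tug1 window holds 37 CG dinucleotides, the 1600020E01Rik window 19 and the Rab26os window 11. Observed to expected CpG was at least 0.6, a usual limit for CpG islands, in 31.0% of the 610 antisense windows, in 49.1% of 20150 windows of protein-coding genes and in 35.8% of all 32851 windows. The sets were not chosen alike. The antisense set holds only the window of each gene nearest to a GENCODE start, and the other sets hold every RefSeq window without such a match. Among antisense genes the limit was met by 24 of 35 divergent windows, 68 of 156 head-to-head windows, 50 of 109 tail-to-tail windows and 40 of 250 embedded ones. The letters TATAAA on the sense strand within the 20 bases that start 40 bases before the start stood in 9 of the 610 antisense windows, or 1.48%, and in 1.87% of all windows. The median log2 labeled to unlabeled exon value was 1.30 (quartiles 0.03 and 2.13) in 104 antisense genes at or above the CpG limit and 1.70 (quartiles 0.33 and 2.62) in 167 genes below it, and the quartile ranges overlapped.

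Other members are complementary to the coding part of their partner over long stretches. In the examples below, 60 bases of an antisense exon are set beside the same bases of the partner's coding exon, each written 5′ to 3′ on its own strand from GENCODE M21 transcripts, with capitals for the complementary bases. Gm27232 (chr9:72618693-72618752, minus strand) lies with 100% of its exon bases on exons of Rfx7, a DNA-binding transcription factor. Gm19553 (chr17:35509112-35509171, minus strand) lies with 64.2% of its exon bases on exons of Pou5f1, the Oct4 factor of pluripotent cells, and was chosen for that partner.
Gm27232: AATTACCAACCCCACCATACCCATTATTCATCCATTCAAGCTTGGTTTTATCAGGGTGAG
Rfx7: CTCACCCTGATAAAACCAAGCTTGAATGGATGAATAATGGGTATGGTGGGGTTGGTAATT
Gm19553: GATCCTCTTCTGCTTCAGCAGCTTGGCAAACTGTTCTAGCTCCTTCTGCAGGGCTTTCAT
Pou5f1: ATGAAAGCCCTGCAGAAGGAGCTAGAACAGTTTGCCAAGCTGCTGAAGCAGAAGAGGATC
Whether the libraries kept the strand of the RNA is not given in the sources used here, so reads of such a shared stretch may not be told apart by strand. This limit touches every value below in which exons or introns of both genes overlap, and the share of antisense exon bases on partner exons is therefore given for many of the pairs below.

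The cells carried the markers of their label. All 12 embryonic stem cell markers, Pou5f1, Nanog and Sox2 among them, had unlabeled exon values above 10 (72.9 to 6580). Of 11 markers of other lineages 2 did, Pax6 and Tubb3, and of 7 fibroblast markers 1 did, Thy1 at 14.5. The fibroblast list summed to 8.87 in labeled and 22.2 in unlabeled RNA, and Col3a1 and Pdgfrb were listed at 0 in both. Values are given in the deposited unit, called TPM, which is per length and sums over the exon and intron rows of each library to 10 times the usual TPM total.

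Antisense transcripts were present at low levels and were more often seen in labeled RNA alone than in unlabeled RNA alone. Exon values were above 0 in both libraries for 1461 of the 3359 transcripts (43.5%), above 0 in labeled RNA only for 673 (20.04%), above 0 in unlabeled RNA only for 137 (4.08%), and listed at 0 in both for 1088 (32.4%). Of 49490 protein_coding transcripts 73.7% were above 0 in both, 7.33% in labeled RNA only and 2.87% in unlabeled RNA only. Of 4993 lincRNA transcripts, noncoding RNAs that lie between genes, 26.4% were above 0 in both, 16.9% in labeled RNA only and 4.09% in unlabeled RNA only. The same order held over all 121429 transcripts, with 9.03% in labeled RNA only and 2.92% in unlabeled RNA only. The median of the mean exon value of both libraries was 0.71 for antisense, 7.0 for protein_coding and 0 for lincRNA transcripts. Only 448 antisense transcripts had a mean above 10 and 37 a mean above 100. Together the antisense transcripts took 0.377% of the labeled exon total and 0.232% of the unlabeled exon total. Their share of the intron total went the other way, with 2.19% of the labeled and 3.08% of the unlabeled intron total. Their intron values were still mostly higher in labeled RNA. The median log2 labeled to unlabeled intron value was 1.57 in 1021 antisense transcripts and 1.99 in all 55140 transcripts. These had all 4 values above 0 and a mean exon value above 1.

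Most antisense transcripts had a higher exon value in labeled than in unlabeled RNA. Of the 1280 transcripts with a mean exon value above 1 and both values above 0, 713 (55.7%) were at least 2-fold higher in labeled RNA, where 27.6% of all 74834 transcripts of the table under the same filter were. At least 2-fold higher in unlabeled RNA were 116 (9.06%), beside 21.1% of all transcripts. The median log2 ratio was 1.26 (quartiles -0.01 and 2.38), a 2.40-fold excess of labeled RNA, and the median over all transcripts was 0.0021. The median was -0.38 (quartiles -1.04 and 0.45) for 33401 protein_coding transcripts and 1.33 (quartiles 0.10 and 2.19) for 1138 lincRNA transcripts. Over all levels the antisense and lincRNA curves lay close together. The filter left out the transcripts at 0 in 1 library, most of them at 0 in unlabeled RNA.

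**Figure D1:**
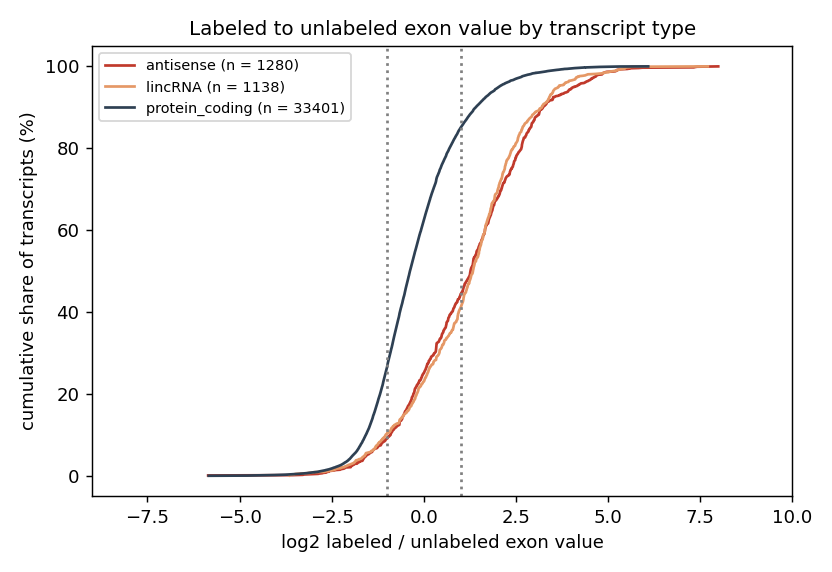
Cumulative share of transcripts (vertical axis, %) against the log2 ratio of labeled to unlabeled exon value (horizontal axis), for transcripts with a mean exon value above 1, with dotted lines at a 2-fold difference. The antisense curve (n = 1280, median 1.26) runs near the lincRNA curve (n = 1138, median 1.33) and to the right of the protein_coding curve (n = 33401, median -0.38).

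The ratio also moved with the level itself. Among antisense transcripts with a mean exon value above 1 and up to 3 the median log2 ratio was 1.34 (n = 347), and among those above 100 it was 0.03 (n = 37). For protein_coding transcripts of the same levels the medians were 0.34 (n = 4072) and -0.80 (n = 6229). Antisense and lincRNA transcripts parted at higher levels, with medians of 0.53 and 1.00 from 30 to 100, and 0.03 and 1.01 above 100. Within each of the 5 level ranges the antisense median exceeded the protein_coding median, by 1.00 from 1 to 3, 1.40 from 3 to 10, 1.52 from 10 to 30, 1.09 from 30 to 100 and 0.83 above 100, on the log2 scale.

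A protein_coding gene overlapped 2148 of the 2384 antisense genes on the opposite strand. Where several did, in 201 genes, the one with the longest overlap was taken as the partner. The antisense gene lay wholly inside its partner (embedded) in 1225 cases, overlapped it start to start (head-to-head) in 511, overlapped it end to end (tail-to-tail) in 336 and contained it (spanning) in 76. Of the 236 genes without a partner, 83 started within 1000 bases of a protein_coding start on the other strand that points away (divergent), and 153 did not. Both genes of 850 pairs, with 812 different partners, had mean exon values above 1 and all values above 0, where transcripts of a gene were summed.

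Within these pairs the antisense gene was lower in level and higher in its labeled to unlabeled ratio than its partner. The median log2 ratio was 1.26 (quartiles -0.04 and 2.34) for the antisense genes and -0.43 (quartiles -1.01 and 0.22) for the partners. The difference within a pair had a median of 1.47 (quartiles 0.19 and 2.81), or 2.78-fold, and was above 0 in 678 of 850 pairs (79.8%). It was at least 2-fold in 504 pairs and at least 2-fold in the other direction in 56. The antisense exon level was a median of 7.10-fold lower than that of the partner, or -2.83 on the log2 scale, and lay above it in 113 pairs (13.3%). This log2 value was -2.0 with the most abundant transcript of each gene, -2.16 with both means above 10, and -3.41 where exons did not overlap. Over all 14127 protein_coding genes under the same filter the median log2 ratio was -0.26 (quartiles -0.94 and 0.59), so that partners lay slightly below protein_coding genes in general.

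The excess of labeled RNA became smaller as more of the antisense exon lay on exons of the partner. In 272 pairs with no shared exon base the median log2 ratio was 1.80 for antisense genes and -0.39 for partners, and the median difference within a pair was 2.27 (quartiles 0.74 and 3.29). Shared bases are counted on exons of protein_coding transcripts of the chosen partner only. In 254 pairs whose antisense exons touched no protein-coding exon of any gene on the opposite strand, the median difference was 2.29. In 332 pairs with above 0 and up to 25% of the antisense exon bases on partner exons, the antisense median was 1.47 and the difference 1.79. In 145 pairs above 25 and up to 50% the antisense median was 0.51 and the difference 0.74. In 51 pairs above 50 and up to 75% the antisense median was -0.0042 and the difference 0.49, and in 50 pairs above 75% these were -0.28 and 0.44. The medians of the partners, -0.39, -0.44, -0.50, -0.36 and -0.86 in the same order, showed no such step before the last range. The share of pairs whose ratios differed by at most 0.5 on the log2 scale was 9.19% with no shared base and 38.6% in the 101 pairs above 50%.

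**Figure D2:**
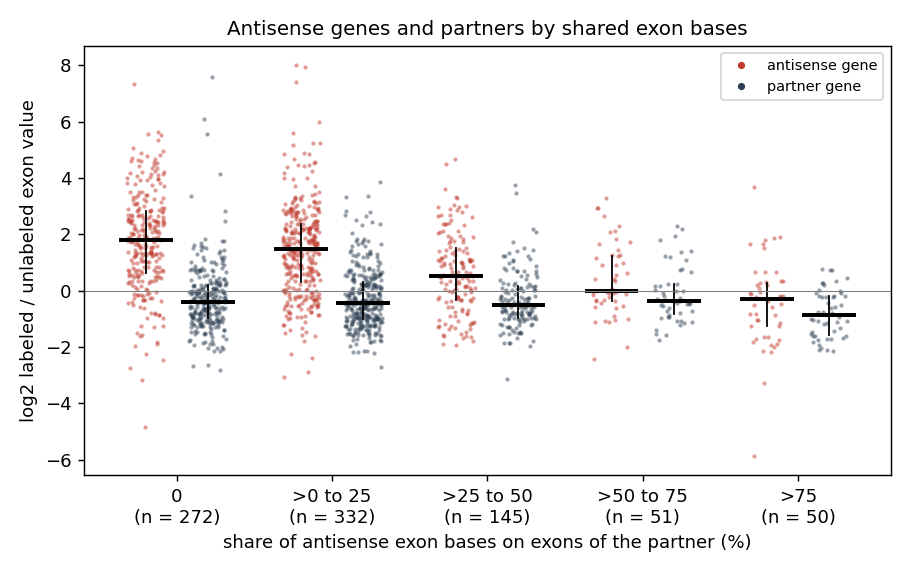
Log2 ratio of labeled to unlabeled exon value (vertical axis) of the antisense gene (red) and its partner (dark) in 850 pairs, by the share of antisense exon bases on partner exons (horizontal axis, %), with thick bars for medians and thin bars for quartiles. The antisense median falls from 1.80 with no shared base to -0.28 above 75%, towards that of the partners.

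In pairs that share most of the antisense exon, the ratios of both genes also went together across pairs. Spearman's correlation of the log2 ratios across pairs was -0.08 in the 272 pairs with no shared exon base, 0.18, 0.36, 0.55 and 0.55 in the ranges that follow. For the mean exon level it was 0.36 with no shared base and 0.73 above 75%. Pairs are not replicates, all share the same 2 libraries, and pairs above 50% also share bases. The pattern was similar where both genes had a mean of at least 10: the median difference was 2.30 in 76 pairs with no shared exon base and 0.47 in 63 pairs above 50%. The level differed as well, with a median antisense exon value of 5.64 with no shared base and 23.1 above 75%, and its part in the pattern was not tested. Over shared bases, reads of the antisense RNA and of its partner may not be told apart here, since strandedness is not given.

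**Figure D3:**
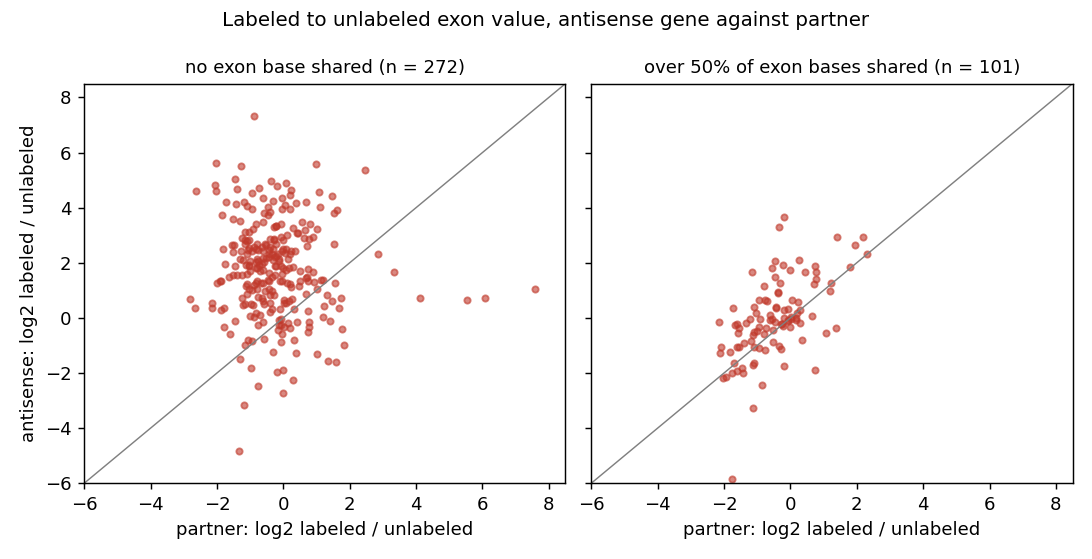
Log2 ratio of labeled to unlabeled exon value of the antisense gene (vertical axis) against that of its partner (horizontal axis), each point 1 pair, with the line of equal ratios in grey. With no shared exon base (left, n = 272) most points stand above the line and Spearman's correlation is -0.08, and with over 50% of exon bases shared (right, n = 101) the points gather near the line and it is 0.59.

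Introns of antisense genes showed the same gradient when they held exons of the partner. Where no intron base lay on a partner exon, the median log2 ratio of labeled to unlabeled intron value was 1.86 in 206 pairs, near the 1.89 of the partners' own introns. With above 0 and up to 10% of intron bases on partner exons it was 1.76 (n = 271), with above 10 and up to 50% it was 1.06 (n = 176), and above 50% it was -0.23 (quartiles -0.89 and 0.41, n = 50), while the partners' introns stayed at 2.04, 2.01 and 2.17. In the last range the partners' exons had a median of -0.60. Gm11583, inside Kpnb1, the importin beta of nuclear import, is 1 example, with all 466 exon bases and all 220 intron bases on exons of Kpnb1. Its intron values were 325.9 in labeled and 1230 in unlabeled RNA, its exon values 212.3 and 744.6, and the exon values of Kpnb1 622.2 and 1701. The introns of Kpnb1 had the opposite order, 76.0 in labeled and 16.3 in unlabeled RNA.

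The position classes differed as well, and so did their shared exon bases. The median difference in log2 ratio was 1.79 in 467 embedded pairs, 1.78 in 165 head-to-head pairs, 0.97 in 189 tail-to-tail pairs and 0.34 in 29 spanning pairs. Tail-to-tail genes had a median of 21.7% of their exon bases on partner exons, and embedded genes 5.70%. Among pairs with no shared exon base the median was 2.44 in 206 embedded and 2.03 in 21 tail-to-tail pairs, and above 50% it was 0.51 in 64 embedded and 0.08 in 29 tail-to-tail pairs. Head-to-head pairs did not follow this order throughout, with 1.41 in 37 pairs with no shared base and 1.81 in 120 with up to 50%. In 8 spanning pairs with no shared base the median was -0.96.

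Embedded genes whose exons all lay in introns of the partner had a median ratio close to that of the introns. In 206 such pairs the median log2 ratio was 1.92 (quartiles 0.70 and 2.91) for antisense exons, 1.96 (quartiles 1.65 and 2.35) for partner introns and -0.41 for partner exons. Antisense exon values lay below the summed intron value of the partner, by a median of 2.12 on the log2 scale in labeled RNA and 1.86 in unlabeled RNA, and were above it in 30 pairs in labeled and 42 in unlabeled RNA. Within a pair the antisense log2 ratio minus that of the partner intron had a median of -0.04, with quartiles -1.21 and 0.86. Spearman's correlation across these pairs between antisense exon and partner intron was 0.41 for the level and 0.16 for the ratio. Between antisense exon and partner exon it was also 0.41 for the level, and -0.01 for the ratio. These antisense exons lie on bases of the partner's introns on the opposite strand. Strandedness is not given, so their reads may not be told apart here. Rab26os, whose start is shown above, is 1 of these genes. Its exon values were 347 in labeled and 23.1 in unlabeled RNA, and those of Rab26, a small GTPase of vesicle traffic, were 23.3 and 7.59.

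Divergent genes, which share no base with their neighbour, also had more labeled RNA. In 23 genes with a measured neighbour the median log2 ratio was 1.57 (quartiles 0.52 and 2.30), against -0.28 in the neighbours, and it was higher than that of the neighbour in 18. The median distance between the starts was 135 bases. Map2k3os had exon values of 45.5 in labeled and 12.5 in unlabeled RNA, and Map2k3, a kinase upstream of p38, 28.0 and 28.6. For 2810001G20Rik, beside the heme synthesis gene Cox10, they were 48.5 and 14.0, with 38.6 and 46.9 for Cox10. Gm11423 had 47.2 and 6.47, with 782 and 1695 for its neighbour Lig3, a DNA ligase. All 3 antisense genes were higher in labeled RNA. Of the neighbours, Lig3 was over 2-fold higher in unlabeled RNA, while Map2k3 and Cox10 had log2 ratios of only -0.03 and -0.28.

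The antisense genes of the highest level were a mixed group. Gm17494 (chr3:122255958-122293547, minus strand) came first, with exon values of 3871 in labeled and 2756 in unlabeled RNA, while its tail-to-tail partner Gclm, a subunit of the enzyme of glutathione synthesis, had 396.5 and 886.9. The exons of Gm17494 shared no base with exons of protein_coding Gclm transcripts, but overlapped exons of other Gclm transcripts, Gm40190 and Gm6061 on the other strand. Tug1 (chr11:3639785-3649673, minus strand), a long RNA found in many tissues, went the other way from most members, with 762.5 in labeled and 1905 in unlabeled RNA. Its partner Morc2a, a chromatin ATPase, had 611.1 and 1058, and 5.80% of Tug1 exon bases lay on Morc2a exons. Zfas1 (chr2:167062934-167065862, plus strand), which hosts small nucleolar RNAs in its introns, had 508.5 in labeled and 98.2 in unlabeled RNA, a 5.18-fold excess. These values are those of its 1 antisense transcript, and Zfas1 transcripts of other types are not in them. Znfx1, the partner of Zfas1 and an RNA helicase, had 48.9 and 82.0. Zfas1 shared 11.1% of its exon bases with Znfx1 and stood above it in both libraries.

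Other genes of high level went with their partners. 1810032O08Rik had 854.7 in labeled and 147.7 in unlabeled RNA, and St6galnac2, a sialyltransferase, had 102.6 and 20.3, with 19.8% of the exon bases shared. The small nucleolar RNA genes Snord1a and Snord1b overlap exons of 1810032O08Rik on its own strand. Gm42457 had 199.4 and 624.3, and Mfsd14a, a transporter-like membrane protein, 157.1 and 333.7, with 100% shared. Gm27232 had 238.5 and 434.6, and Rfx7 548.6 and 784.3, also with 100% shared. Gm37401 had 252.8 and 522.6 with 93.4% shared, and its partner Rhoa, the GTPase of the actin skeleton, 298.5 and 1280. Gm5577, whose exons also overlapped those of H1fx and Gm47286 on the other strand, had 244.6 and 464.7. It shared 9.71% of its exon bases with Rab7, a GTPase of late endosomes, which had 3725 and 10547. All 4 of these genes and their partners were higher in unlabeled RNA, unlike 1810032O08Rik and St6galnac2, which were both higher in labeled RNA. The same agreement in the labeled direction was seen in Gm33051, with 461.5 and 129.4 beside 2463 and 707.1 for Rpl22l1 and 58.0% shared. Gm33051 was picked after its values were seen.

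A further 3 genes of high level had little or no shared exon. Gm29514 had 277.9 in labeled and 610.7 in unlabeled RNA, while its partner Brinp3 had 0.45 and was listed at 0. Gm4221 had 394.9 and 238.3, and Zfp608 5.68 and 8.91. Both antisense genes stood far above their partners, and exons of Gm29514 also overlapped those of Gm5263 on the other strand. Gm13165 had 918.7 and 351.0, and Zfp600 4560 and 6278, but Zfp600 belongs to a cluster of near-identical zinc finger genes, so that the values of both are uncertain. In the spanning class, Brip1os had 74.8 and 93.1 beside 183.5 and 442.8 for Ints2, Gm15964 had 72.0 and 69.6 beside 23.2 and 10.1 for Dnajc28, and Gm15441 had 43.6 and 78.4 beside 550.7 and 504.6 for Txnip. Of these, Brip1os had 7.88% of its exon bases on exons of Ints2 and overlapped exons of Med13, Gm15964 overlapped exons of Gart, and Gm15441 shared 36.2% of its exon bases with Txnip.

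**Figure D4:**
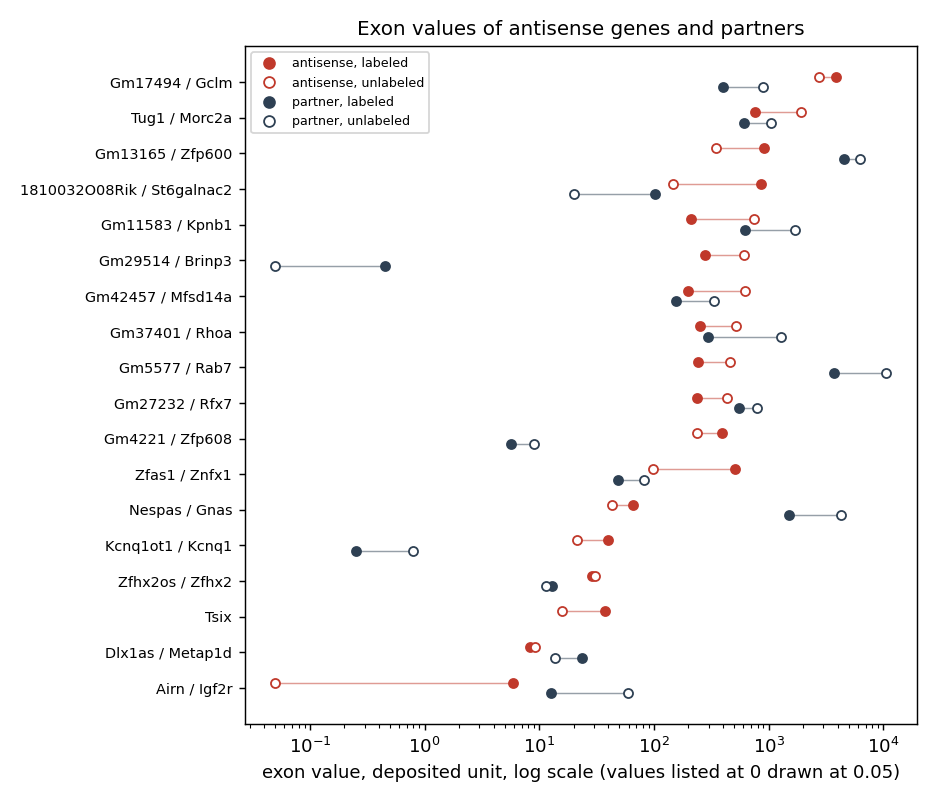
Exon values (horizontal axis, deposited unit, log scale) of the 12 antisense genes of the highest level and 6 known ones (red) and their partners (dark), in labeled (filled) and unlabeled (open) RNA, with values listed at 0 drawn at the left edge. Of the 12, Zfas1 and 1810032O08Rik lie highest in labeled RNA relative to unlabeled RNA. The opposite order, with more unlabeled RNA, is seen in most of the 12: Tug1, Gm11583, Gm42457, Gm29514, Gm37401, Gm5577 and Gm27232.

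The genes at either end of the labeled to unlabeled ratio, among those of mean exon value at least 10, were chosen by that ratio and are given as a description. The 5 highest were Gm15651 (30.5 in labeled and 0.12 in unlabeled RNA), Lrrc75aos2 (113.5 and 0.47), Gm36992 (124.4 and 0.73), Gm17096 (27.4 and 0.45) and Gm15624 (19.7 and 0.40). All 5 had unlabeled values under 1 and passed the minimum through labeled RNA alone, so that their folds rest on a value near the lower end of the table, and of the 4 with a partner none shared more than 7.01% of exon bases with it. The introns of Gm36992 did not follow its exons, with 40.4 in labeled and 59.4 in unlabeled RNA, and 48.9% of its intron bases lay on exons of its partner Cep170. The 5 lowest were Gm14493 (0.84 and 48.6, in Mid1ip1), St8sia3os (4.54 and 24.3), Gm26827 (15.0 and 68.1, in Chsy1), Gm43126 (23.1 and 102.1, in Ccnd2) and Gm44166 (4.06 and 16, in Gm9008). Each of these 5 had over 50% of its exon bases on partner exons. Gm26827 stood close to Chsy1, which had 16.9 and 69.5, and Gm43126 to Ccnd2, a G1 cyclin, which had 36.7 and 139.9. Mid1ip1 had 40.3 and 136.0, and the ratio of Gm14493 rests on a labeled value under 1, as it passed the minimum through unlabeled RNA alone.

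The pairs at either end of the difference, where both genes had a mean of at least 10, are given as a description, since they were chosen by that difference. Highest were Gm36992 over Cep170 (8.19 on the log2 scale), Gm15624 over Dctn1 (7.66), Gm11614 over Pip4k2b (6.64) and Gm3848 over Ptprg (6.52). Gm11614 had 102.0 in labeled and 4.17 in unlabeled RNA, and Pip4k2b 34.5 and 140.6. Gm3848 had 46.6 and 1.41, and Ptprg 66.4 and 184.1. All 4 antisense genes had unlabeled values under 5 and reached the mean of 10 through labeled RNA alone, so the size of their differences rests on low unlabeled values. The exons of Gm15624, Gm11614 and Gm3848 lay wholly in introns of the partner. Lowest were A930015D03Rik against H2-T24 (-5.35), Gm14493 against Mid1ip1 (-4.10), Gm29434 against Mknk1 (-2.63, with 100% of its exon bases shared) and Gm15564 against Parp9 (-1.76). H2-T24, a nonclassical histocompatibility gene with close paralogs among which reads may be split, had 187.0 and 2.78, and A930015D03Rik 16.4 and 9.93. Exons of A930015D03Rik overlapped those of H2-T22 on the other strand.

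Of the known antisense RNAs, those of imprinted domains were present and had more labeled than unlabeled RNA. Nespas, at the Gnas domain, had exon values of 65.9 in labeled and 42.9 in unlabeled RNA and intron values of 180.8 and 44.7, and Gnas, the G protein alpha subunit, had exon values of 1517 and 4313, with 31.4% of Nespas exon bases on its exons. Kcnq1ot1, a single-exon RNA of 93092 bases inside the potassium channel gene Kcnq1, had 39.6 and 21.4, far above the 0.25 and 0.80 of Kcnq1 exons. The introns of Kcnq1, in which it lies, had 24.3 and 11.7. Airn, which runs against the start of Igf2r, the receptor that clears insulin-like growth factor 2, had 5.96 in labeled RNA and was listed at 0 in unlabeled RNA over its exons. Its introns had 76.3 and 24.1, and Igf2r exons had 12.6 and 59.4. Per length, Airn was thus higher over its introns than over its exons in both libraries. Tsix had exon values of 37.1 and 15.6 and intron values of 27.4 and 5.08. Its partner Xist is noncoding, so Tsix is in no pair, and Xist had 115.1 and 15.5 over the same bases in part.

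Most of the listed antisense RNAs of developmental genes were at or near 0 over their exons. Exon values of Zeb2os, Hoxd3os1, Foxo6os, Hoxb5os, Evx1os and Hoxa11os were listed at 0 in both libraries. Those of Hoxb3os, Nkx2-2os, Emx2os, Uchl1os, Dlx6os1 and Six3os1 were under 1 in labeled RNA and listed at 0 in unlabeled RNA, and those of Wt1os and Hotairm1 were 1.57 and 7.61 in labeled RNA and also listed at 0 in unlabeled RNA. Exons of the partners Hoxd3, Evx1, Hoxa11, Nkx2-2 and Emx2 were also listed at 0 in both, though introns of Nkx2-2 had 4.0 and 1.21 and those of Hoxa11 0.77 and 0.20. By contrast, Zeb2 (51.6 and 52.4) and Uchl1 (89.1 and 53.6) were expressed while exons of their antisense RNA were at or near 0. The same held for Pax6 (68.7 and 70.5), where Pax6os1 had 0 and 0.55 over its exons but 42.5 and 31.0 over its introns. Introns of Hoxb3os (11.7 and 0.14), Wt1os (6.31 and 1.76) and Foxo6os (3 and 1.61) were also above 0. Zfhx2os (29.1 and 30.8, beside 12.9 and 11.5 for Zfhx2, with 56.8% of its exon bases shared) and Dlx1as (8.22 and 9.20) had nearly equal values in both libraries.

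Per length, antisense introns stood higher relative to exons than those of protein_coding transcripts, in labeled and in unlabeled RNA. In 1021 transcripts with all 4 values above 0 the median intron to exon ratio was 1.16 (quartiles 0.53 and 2.43) in labeled RNA and 0.872 (quartiles 0.33 and 2.41) in unlabeled RNA. With a mean exon value above 10 the antisense medians were lower, 0.765 in labeled and 0.545 in unlabeled RNA (n = 377). For 31386 protein_coding transcripts the medians were 0.570 and 0.111, and for 871 lincRNA transcripts 0.948 and 0.666. The ratio was 1 or more in unlabeled RNA in 471 antisense transcripts (46.1%), in 39.2% of the lincRNA ones and in 8.58% of the protein_coding ones. A model in which RNA is made with introns, spliced and then degraded at constant rates needs a labeled ratio under 1 that exceeds the unlabeled ratio. Of the antisense transcripts 771 (75.5%) lay outside it, where 69.9% of the lincRNA transcripts and 37.9% of all 55140 transcripts did. In 569 of these antisense transcripts the labeled ratio reached 1, and the other 202 had a lower ratio that did not exceed the unlabeled one. The remaining 250 had ratios that the model allows. The antisense transcripts and all transcripts were not matched for level in this comparison. With a mean exon value above 10, 63.1% of the antisense transcripts lay outside the model (n = 377).

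**Figure D5:**
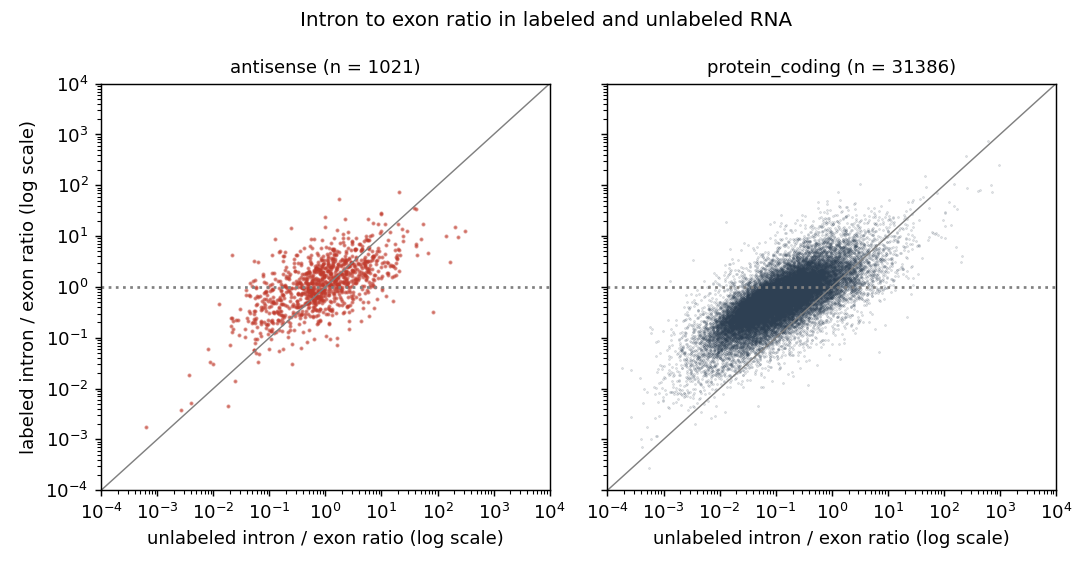
Intron to exon ratio in labeled RNA (vertical axis) against that in unlabeled RNA (horizontal axis), both on log scales, for 1021 antisense (left) and 31386 protein_coding transcripts (right), with the line of equal ratios and a dotted line at a labeled ratio of 1. The antisense points spread along and on both sides of the line of equal ratios, and most protein_coding points lie above it and below the dotted line.

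The ratios were similar whether or not the introns held any partner exon, and lower in genes without a partner. Summed over the transcripts of a gene, the median was 1.15 in labeled and 1.05 in unlabeled RNA for 219 genes whose introns held no exon of the partner, and 1.26 and 0.930 for 537 whose introns did. In 179 genes whose exons lay in partner introns the medians were 1.25 and 1.31. In 55 genes without a partner they were 0.765 and 0.669, and the unlabeled ratio was 1 or more in 34.5% of them, against 51.1% and 48.6% in the other groups. In the 50 pairs with over 50% of intron bases on partner exons the medians were 1.13 in labeled and 1.50 in unlabeled RNA. With no such base they were 1.20 and 1.09 (n = 206). They were 1.36 and 0.846 up to 10% (n = 271), and 1.17 and 0.951 from there to 50% (n = 176). The unlabeled ratio exceeded the labeled one in 349 of all 811 genes (43.0%). The part of partner intron reads in either value was not tested.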

How the data were processed

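The labeled and the unlabeled RNA of wild-type cells were each measured in 1 library. The authors left out reads that mapped to ribosomal RNA, aligned the rest to exonic and intronic sequences of Ensembl v91 on GRCm38 (mm10) with STAR 2.5.0, and quantified them with RSEM. The deposited signal is 1 exon value and, for spliced transcripts, 1 intron value per transcript and library, called TPM, in columns that sum to 10 times the usual TPM total. Read counts and strandedness are not given in the sources used here, so the depth is unknown and no counting error is given.

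Transcripts were matched by identifier to GENCODE M21, which holds 110366 of the 121429. Exon and intron values were used as deposited, and gene values are sums over antisense or protein_coding transcripts. Ratios needed values above 0 and a mean exon value above 1, with no pseudocount. A value of 0 with no counts can be a failed estimate and is given as listed at 0, with no fold. Starts were compared with RefSeq windows. A search of the bases after the starts was planned and not made, since no genome was used here. Genes were named by level (12 highest, and 3 in each position class with a measured partner or neighbour), ratio (5 at either end), difference from the partner (4 at either end) and a list of 40 known noncoding RNAs, of which 22 are members. Members, lists and alternatives were chosen with earlier results of these data known. The code was tested on simulated data. The scripts ran in Python 3.11.15 with pandas 2.3.3, numpy 2.4.6, matplotlib 3.10.9 and scipy 1.17.1.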

Additional observations from a re-analysis of the deposited data

How the results depend on the processing

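With 2 libraries of 1 replicate, no replicate could be left out, and depth cannot be used to weigh a value. No paired analysis was possible because no result comes from a test. Each of the 9 summary values was recomputed under the alternatives, and a value is given here where it left the 95% binomial interval of the value in the report (for a median, from order statistics; both cover the number of transcripts or genes only). Of 53 values 26 stayed within it and 27 did not, and none changed sign. With antisense genes whose exons touch no protein-coding exon on the opposite strand, 33.3% of transcripts were above 0 in both libraries, 69.1% were at least 2-fold higher in labeled RNA, the median log2 ratio of antisense genes was 1.78, its difference from the partner 2.29 and the log2 level against the partner -3.41. With a mean exon value above 10 these last 4 were 50% of transcripts, 0.95, 1.21 and -2.16, the partner median was -0.59, the intron to exon ratios were 0.765 in labeled and 0.545 in unlabeled RNA, and 63.1% of transcripts lay outside the model. With a value above 1 in each library, 47.3% were at least 2-fold higher in labeled RNA, the antisense median was 0.95, the difference 1.17, the unlabeled intron to exon ratio 0.739 and the share outside the model 71.7%. With a pseudocount of 0.1, which brings back the transcripts at 0, 61.6% were at least 2-fold higher, the antisense median was 1.59, the difference 1.86 and the intron to exon ratios 1.03 and 0.981. With no minimum the labeled intron to exon ratio was 1.28. With 1 transcript per gene 46.0% were above 0 in both libraries, and with the most abundant transcript of each gene the partner median was -0.52 and the level against the partner -2.0. The choice among several partners moved none of its 3 values.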

Other observations

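The partners were also grouped by symbol. Of the 850 pairs, 66 had a partner among the transcription factors, and the median log2 ratio of labeled to unlabeled exon value was 0.93 in these antisense genes and -0.50 in their partners, with a median difference of 1.49 that was above 0 in 54 pairs. For 23 pairs with RNA processing partners the medians were 1.60 and -0.80, with a difference above 0 in 20 pairs. For 22 pairs with cell cycle, replication and repair partners they were 0.88 and -0.53 (above 0 in 20), for 20 with chromatin partners 0.58 and -0.50 (17), for 16 with mitochondrial partners 1.08 and 0.03 (13), for 13 with translation and ribosome partners 1.40 and -0.42 (12), and for 43 with signaling partners 0.68 and -0.76 (37). The antisense median was above that of the partners in each of these 7 groups, as in the 647 pairs of no group (1.33 and -0.42). Chromatin pairs, which had the lowest antisense median, had a median of 21.2% of antisense exon bases on partner exons, against 8.30% in RNA processing pairs, and its part in the difference was not tested.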
